A study of Mus musculus with 12 samples.

Results

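The 9 genes described here mark microglia and other macrophages: Csf1r, Cx3cr1, Aif1, C1qa, C1qb, C1qc, Tyrobp, Mrc1 and Acp5. They were chosen by name, with earlier results of these data known, and are 9 of the 24411 genes in the deposited RNA sequencing tables. All 9 passed the filter on low counts, among 14311 genes tested. The tissue was the cerebral cortex of single mouse embryos, wild type (WT) or HARE5Hs/Hs, at the embryonic stages E12.5 and E14.5, with 3 embryos in each of the 4 groups. The enhancer HARE5 acts on Fzd8, a gene for a Wnt receptor, and HARE5Hs/Hs embryos carry the human version of it on both alleles by knock-in, so the change is present in every cell and is not limited to macrophages. Strain, sex and litter were not labelled. The comparisons ask how the 9 genes differ between the ages and between the genotypes.

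Microglia are the resident macrophages of the brain. They arise from yolk sac progenitors, enter the embryonic neural tissue before neurogenesis peaks, and depend on signalling through the receptor Csf1r and on the transcription factor PU.1. A related population, the border-associated macrophages, lives in the meninges, around vessels and in the choroid plexus, shares Csf1r and the complement genes with microglia, and is set apart by the mannose receptor Mrc1. A whole cortex holds few cells of either kind, and levels in such bulk RNA are scaled to the library. Fewer cells of a type, a smaller share of all cells and less RNA per cell thus cannot be told apart.

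Total counts per library ran from 11593202 to 17670103, and 3 counts corresponded to 0.165 to 0.273 CPM (counts scaled to the size of the library, here by TMM). Cortical genes (12 listed, among them Emx1 and Tbr1) summed to 1533 to 4595 CPM in each library, and the 9 genes together to 27.6 to 106 CPM. Of 22 pan-macrophage genes, all were detected in all 4 groups. Of the genes of monocytes, Ccr2 held 3 to 9 counts and Ly6c2 0 to 4 counts summed over the 3 embryos of a group. The 12 monocyte and neutrophil genes in the data, Mpo among them, summed to 0.405 to 13.5 CPM per library. The highest of these sums was in E12.5 WT replicate 1. The lymphocyte and mast cell genes Cd3e, Cd3g, Ms4a1, Nkg7, Cma1 and Fcer1a had 0 counts in all 12 libraries. Levels below are CPM in replicates 1, 2 and 3 in that order, SD is over n = 3 embryos, and "edgeR adjusted p" is the p of the quasi-likelihood test in edgeR, adjusted by the Benjamini-Hochberg method over the 14311 genes. Genes said to have risen or fallen had an adjusted p under 0.05.

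C1qb and C1qc lie next to each other in the genome, with C1qa beside C1qc, on chromosome 4 in the reference used (RefSeq, GRCm38.p6). Of the 9 genes, 6 had a promoter window in that reference. The 250 bases before the start site of C1qb and C1qc are shown because both genes fell with age in both genotypes, and those of Acp5 because its fall was the largest of the 9. Capitals mark 3 motifs searched on both strands: the PU.1 core GAGGAA, the GATA core AGATAA and the E-box CATGTG or CACGTG, which MITF family factors can bind. The windows are chr4:136886201-136886450, chr4:136892915-136893164, chr9:22135747-22135996 and chr9:22130599-22130848, all on the minus strand.
C1qb: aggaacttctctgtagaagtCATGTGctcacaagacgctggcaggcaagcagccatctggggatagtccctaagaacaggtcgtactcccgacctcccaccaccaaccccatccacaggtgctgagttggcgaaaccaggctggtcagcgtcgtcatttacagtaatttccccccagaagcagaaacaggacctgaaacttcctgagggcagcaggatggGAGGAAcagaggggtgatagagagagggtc
C1qc: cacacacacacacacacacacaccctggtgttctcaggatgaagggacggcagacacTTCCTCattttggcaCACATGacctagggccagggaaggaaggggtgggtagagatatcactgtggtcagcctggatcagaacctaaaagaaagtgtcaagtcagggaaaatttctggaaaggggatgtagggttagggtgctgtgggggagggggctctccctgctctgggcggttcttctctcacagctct
Acp5 start site 1: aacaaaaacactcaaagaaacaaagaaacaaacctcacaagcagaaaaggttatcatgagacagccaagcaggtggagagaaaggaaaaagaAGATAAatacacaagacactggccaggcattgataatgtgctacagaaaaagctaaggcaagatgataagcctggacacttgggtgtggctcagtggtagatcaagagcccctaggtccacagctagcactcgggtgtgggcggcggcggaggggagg
Acp5 start site 3: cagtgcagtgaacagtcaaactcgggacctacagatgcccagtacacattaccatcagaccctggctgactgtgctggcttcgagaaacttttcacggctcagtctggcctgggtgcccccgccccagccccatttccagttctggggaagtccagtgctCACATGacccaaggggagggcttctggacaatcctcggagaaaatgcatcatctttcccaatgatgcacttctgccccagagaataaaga
All 3 Acp5 start sites in the reference were searched, and start site 2, not shown, holds none of the motifs. The C1qb and C1qc windows each hold 1 PU.1 core and 1 E-box. The PU.1 core begins 30 bases before the C1qb start site and 193 bases before that of C1qc. Start site 1 of Acp5 holds a GATA core, and start site 3 holds an E-box. These letters are common: of 32851 such windows, 23.3% hold the PU.1 core, 9.99% the GATA core and 17.6% the E-box. The window of Mrc1 held 3 PU.1 cores, that of Aif1 1 and that of Cx3cr1 none of the 3 motifs. A match is a run of letters, not a measured binding site.

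Between E12.5 and E14.5, 3 of the 9 genes fell in WT and 3 of 9 fell in HARE5Hs/Hs, and none of the 9 rose in either. They were Acp5, C1qb and C1qc in both genotypes. Acp5 fell to near 0, while C1qb and C1qc roughly halved. The other 6 genes had fold changes below 0 in both genotypes that did not pass the test. For comparison, 15.2% of all genes tested fell in WT and 22.0% in HARE5Hs/Hs, and 20.0% and 23.7% rose. The median log2 fold change of the 9 genes was −0.66 in WT and −0.95 in HARE5Hs/Hs, against −0.01 and −0.03 over all genes tested. A log2 fold change below 0 was found for 9 of 9 genes in each genotype and for 50.8% (WT) and 52.3% (HARE5Hs/Hs) of all genes tested. With both genotypes averaged, the same 3 genes fell and none rose, where 28.3% of all genes tested fell and 28.5% rose.

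**Figure D1:**
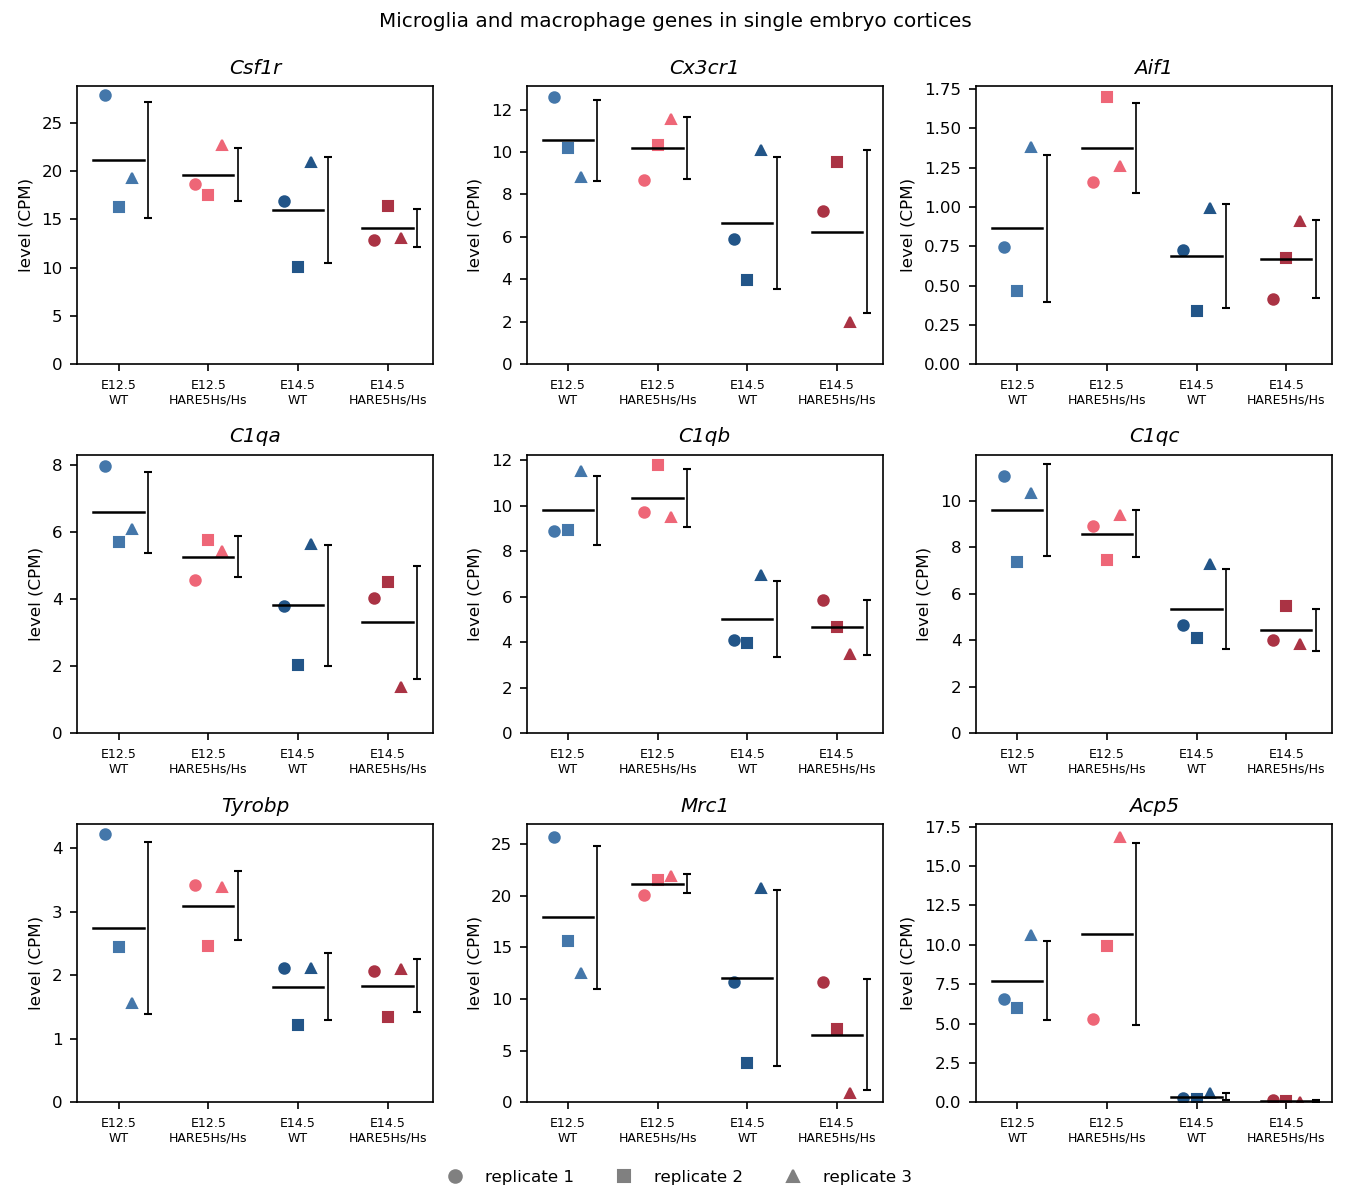
Level of each of the 9 genes in CPM (vertical axis, from 0, a separate scale per gene) in the 4 groups of 3 embryos; each symbol is 1 embryo (circle, square and triangle for replicates 1, 2 and 3), lines are means and bars are SD. Acp5 is at 5.32 CPM or more in every E12.5 embryo and at 0.597 CPM or less in every E14.5 embryo, and replicate 2 is the lowest E14.5 WT embryo for all 9 genes.

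Csf1r encodes the receptor for CSF1 and IL-34 that macrophages need to survive. At E12.5 it measured 27.9, 16.3 and 19.3 CPM in WT and 18.7, 17.5 and 22.7 CPM in HARE5Hs/Hs. The later stage gave 16.9, 10.1 and 21.0 CPM in WT and 12.9, 16.4 and 13.03 CPM in HARE5Hs/Hs. The ages overlapped in WT and did not overlap in HARE5Hs/Hs. The log2 fold change was −0.40 (SE 0.26, edgeR adjusted p = 0.24) in WT and −0.47 (SE 0.26, edgeR adjusted p = 0.15) in HARE5Hs/Hs.

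Cx3cr1, the receptor for the neuronal chemokine fractalkine, measured 12.6, 10.2 and 8.85 CPM in E12.5 WT and 8.68, 10.3 and 11.6 CPM in E12.5 HARE5Hs/Hs. At E14.5 the values were 5.91, 3.98 and 10.1 CPM in WT and 7.24, 9.52 and 2.00 CPM in HARE5Hs/Hs. In each genotype 1 E14.5 embryo remained within the E12.5 range. The log2 fold changes of −0.66 (SE 0.44) in WT and −0.69 (SE 0.45) in HARE5Hs/Hs did not pass, with edgeR adjusted p of 0.267 and 0.222.

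Aif1 encodes the actin-binding protein IBA1, a common stain for microglia. It was the member with the lowest CPM at E12.5, with 42 counts over the 3 WT embryos and 69 over the 3 HARE5Hs/Hs embryos, against 31 and 27 at E14.5. Its levels ran from 0.467 to 1.38 CPM in E12.5 WT, from 1.16 to 1.70 CPM in E12.5 HARE5Hs/Hs, from 0.337 to 0.996 CPM in E14.5 WT and from 0.415 to 0.911 CPM in E14.5 HARE5Hs/Hs. The ages overlapped in WT and did not overlap in HARE5Hs/Hs. The log2 fold changes were −0.32 (SE 0.57, edgeR adjusted p = 0.693) in WT and −1.06 (SE 0.57, edgeR adjusted p = 0.145) in HARE5Hs/Hs.

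C1qa, C1qb and C1qc encode the 3 chains of C1q, the recognition molecule of the classical complement pathway, which macrophages make in the brain. C1qb measured 8.91, 8.93 and 11.5 CPM in E12.5 WT and 4.11, 3.98 and 6.97 CPM in E14.5 WT. In HARE5Hs/Hs it measured 9.72, 11.8 and 9.51 CPM at E12.5 and 5.87, 4.66 and 3.46 CPM at E14.5. Every E14.5 embryo lay below every E12.5 embryo. C1qb fell by 0.96 on the log2 scale in WT (SE 0.27, edgeR adjusted p = 0.0153) and by 1.14 in HARE5Hs/Hs (SE 0.27, edgeR adjusted p = 0.0045).

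C1qc measured 11.1, 7.35 and 10.4 CPM in E12.5 WT and 4.65, 4.12 and 7.30 CPM in E14.5 WT. In HARE5Hs/Hs it measured 8.93, 7.47 and 9.38 CPM at E12.5 and 4.03, 5.47 and 3.83 CPM at E14.5. The ages did not overlap in either genotype, although the lowest E12.5 WT embryo (7.35 CPM) and the highest E14.5 WT embryo (7.30 CPM) were nearly equal. C1qc fell by 0.84 in WT (SE 0.26, edgeR adjusted p = 0.0266) and by 0.95 in HARE5Hs/Hs (SE 0.27, edgeR adjusted p = 0.0121) on the log2 scale. The WT calls rest on single embryos: without E12.5 WT replicate 3, or E14.5 WT replicate 1 or 2, neither C1qb (edgeR adjusted p 0.0583 to 0.0649) nor C1qc (0.0782 to 0.0939) passed. Without E12.5 WT replicate 1, C1qb passed and C1qc did not (edgeR adjusted p = 0.0722).

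C1qa measured 7.97, 5.72 and 6.09 CPM in E12.5 WT and 3.78, 2.02 and 5.64 CPM in E14.5 WT. In HARE5Hs/Hs it measured 4.59, 5.76 and 5.45 CPM and then 4.03, 4.52 and 1.37 CPM. The ages did not overlap within either genotype. Its log2 fold changes of −0.79 (SE 0.42, edgeR adjusted p = 0.162) in WT and −0.65 (SE 0.42, edgeR adjusted p = 0.22) in HARE5Hs/Hs were near those of C1qc but had larger errors and did not pass. The 3 chains thus had fold changes of one sign in both genotypes, and whether C1qa differed from the other two was not tested.

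Tyrobp encodes DAP12, the adaptor that passes on signals from TREM2 and other receptors. It measured 4.24, 2.45 and 1.57 CPM in E12.5 WT, 3.43, 2.47 and 3.39 CPM in E12.5 HARE5Hs/Hs, 2.12, 1.22 and 2.12 CPM in E14.5 WT and 2.08, 1.35 and 2.10 CPM in E14.5 HARE5Hs/Hs. E12.5 WT replicate 3, at 1.57 CPM, lay inside the E14.5 range. The log2 fold changes were −0.59 (SE 0.41, edgeR adjusted p = 0.282) in WT and −0.75 (SE 0.41, edgeR adjusted p = 0.153) in HARE5Hs/Hs.

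Mrc1, the mannose receptor CD206, marks border-associated macrophages. It measured 25.7, 15.6 and 12.48 CPM in E12.5 WT and 20.1, 21.5 and 22.0 CPM in E12.5 HARE5Hs/Hs. Its E14.5 values were 11.6, 3.78 and 20.8 CPM in WT and 11.6, 7.09 and 0.911 CPM in HARE5Hs/Hs. The E14.5 embryos differed 5.50-fold between the highest and the lowest in WT and 12.8-fold in HARE5Hs/Hs, against 2.06-fold and 1.09-fold at E12.5. The ages overlapped in WT and did not overlap in HARE5Hs/Hs. The log2 fold change was −0.57 (SE 0.63, edgeR adjusted p = 0.51) in WT and −1.66 (SE 0.65, edgeR adjusted p = 0.0541) in HARE5Hs/Hs. The second value sits at the threshold: with no filter on low counts it passed (edgeR adjusted p = 0.048), and in the authors' deposited table Mrc1 has a log2 fold change of −1.69 with an adjusted p of 0.0365 for HARE5Hs/Hs. Without E14.5 HARE5Hs/Hs replicate 1 it also passed (log2 fold change −2.36, edgeR adjusted p = 0.0223).

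Acp5 encodes tartrate-resistant acid phosphatase, a lysosomal enzyme of osteoclasts and of some macrophages. It held 105, 103 and 169 counts in E12.5 WT and 87, 181 and 253 counts in E12.5 HARE5Hs/Hs. At E14.5 it held 4, 3 and 9 counts in WT and 2, 1 and 0 counts in HARE5Hs/Hs. In CPM these are 6.54, 6.01 and 10.6, then 5.32, 9.94 and 16.8 at E12.5, and 0.265, 0.202 and 0.597, then 0.119, 0.0675 and 0 at E14.5. All 6 E14.5 embryos lay far below all 6 E12.5 embryos. Acp5 fell by 4.41 on the log2 scale in WT (SE 0.55, edgeR adjusted p = 0.0002). In HARE5Hs/Hs it also fell (edgeR adjusted p = 3.6e-05), and since only 3 counts remained there, the size is given as a ratio of scaled counts: 149 between E12.5 and E14.5, with a 95% counting interval of 50.8 to 726. The ratio in WT was 21.6 (13.1 to 38.1). These intervals cover counting error only and not the spread between embryos. Leaving out each library in turn kept Acp5 past the threshold in both genotypes.

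With the genotypes averaged, C1qb fell by 1.05 (SE 0.19, edgeR adjusted p = 0.0005) and C1qc by 0.89 (SE 0.19, edgeR adjusted p = 0.0015) on the log2 scale. A further 4 genes came close to the threshold: Mrc1 at −1.12 (edgeR adjusted p = 0.0516), C1qa at −0.72 (0.0538), Csf1r at −0.44 (0.0553) and Tyrobp at −0.67 (0.0648). Cx3cr1 stood at −0.68 (0.0833) and Aif1 at −0.69 (0.162). The number past the threshold depended on the test and on 1 embryo. DESeq2 called 6 of the 9 (Acp5, C1qa, C1qb, C1qc, Csf1r and Cx3cr1), and without E14.5 WT replicate 3 edgeR called 7 (those 6 and Mrc1). Without E14.5 HARE5Hs/Hs replicate 2 it called 5 (Acp5, C1qa, C1qb, C1qc and Cx3cr1). The shares of all genes that passed under these settings are not given here, so these counts are not read as results about the 9. Mrc1 also passed with DESeq2 size factors in edgeR (0.0485), with no filter (0.0458) and without E14.5 HARE5Hs/Hs replicate 1 (0.0187). Csf1r passed without E12.5 WT replicate 2 (0.0355) and Tyrobp without E12.5 WT replicate 3 (0.0302). Groups without overlap were found for 4 of 9 genes in WT (Acp5, C1qa, C1qb and C1qc, all lower at E14.5) and for 8 of 9 in HARE5Hs/Hs (all but Cx3cr1), against 22.9% and 29.6% of all genes tested that were lower without overlap.

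**Figure D2:**
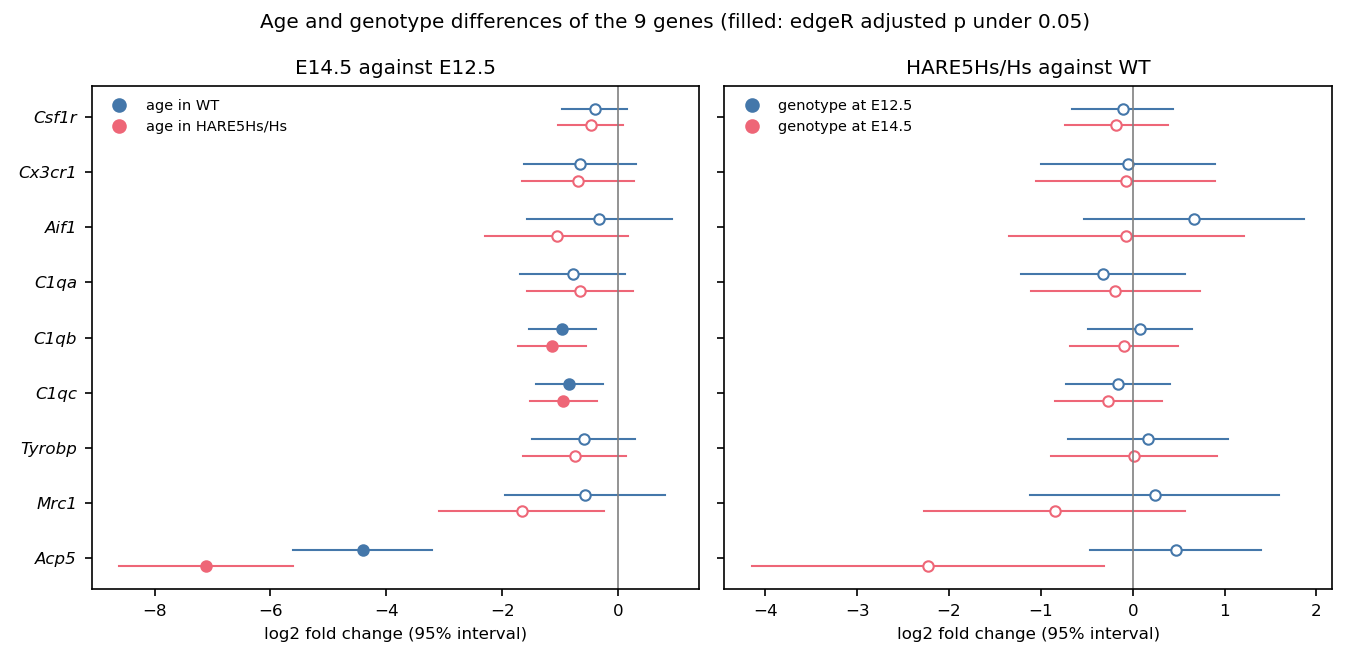
Log2 fold change of each gene with its 95% interval from the edgeR fit (horizontal axis), E14.5 against E12.5 within each genotype (left) and HARE5Hs/Hs against WT at each age (right); filled symbols have an edgeR adjusted p under 0.05. Every age estimate lies below 0, Acp5, C1qb and C1qc are filled in both genotypes, and no genotype estimate is filled.

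HARE5Hs/Hs embryos did not differ detectably from WT in any of the 9 genes. At E12.5, E14.5, averaged over ages and for the genotype by age interaction, 0 of 9 passed in edgeR, which called 0.00% of all genes tested in each of these comparisons. An unadjusted edgeR p under 0.05 was found for 322 genes (2.25% of those tested) at E12.5 and 1708 (11.9%) at E14.5. It was found for 1366 (9.55%) averaged over ages and 731 (5.11%) for the interaction. In the same 4 comparisons DESeq2 called 0, 35, 0 and 1 genes, none of them among the 9. At E12.5 the log2 differences of the 9 genes lay between −0.32 (C1qa) and 0.67 (Aif1), with 95% intervals that reached from −1.22 to 1.87. At E14.5 the intervals reached from −4.14 to 1.21. For C1qb the interval was −0.49 to 0.65 at E12.5 and −0.69 to 0.49 at E14.5, so a doubling or halving lies outside it at both ages, while for Mrc1 it was −2.27 to 0.57 at E14.5.

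Acp5 was the member with an unadjusted edgeR p under 0.05 between genotypes, at E14.5 and in the interaction. That is 1 of 9 genes in each, against 11.9% and 5.11% of all genes tested. It is not read as a result about the 9. At E14.5 WT held 16 counts and HARE5Hs/Hs 3, and each HARE5Hs/Hs embryo lay below each WT embryo, which was so for 8.93% of all genes tested. The ratio of WT to HARE5Hs/Hs was 5.06 with a 95% counting interval of 1.45 to 27.1, and the edgeR adjusted p was 0.369 (unadjusted 0.026). The interaction, which sets the age fall in HARE5Hs/Hs against that in WT, had an edgeR adjusted p of 0.921 (unadjusted 0.0172). All 6 E14.5 embryos held at most 9 counts, so the difference lies near the limit that the depth allows. Acp5 passed the filter on low counts through its E12.5 libraries. With only the E14.5 libraries compared it did not pass the filter, so no conclusion is drawn from these p-values or from the lack of overlap. Mrc1 had a log2 difference of −0.85 at E14.5 (SE 0.65, edgeR adjusted p = 0.591). It moved to −0.21 without E14.5 WT replicate 3, to −0.36 without E14.5 HARE5Hs/Hs replicate 3 and to −1.53 without E14.5 HARE5Hs/Hs replicate 1, and passed in none of these.

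Per length of transcript, the order of the genes changed little apart from Acp5. On the authors' FPKM scale, C1qb (11.3 ± 1.71, SD, n = 3) and C1qc (11.2 ± 2.31) had the highest levels in E12.5 WT, followed by Tyrobp (7.46 ± 3.75), C1qa (7.44 ± 1.38), Acp5 (6.36 ± 2.06), Csf1r (5.75 ± 1.64), Mrc1 (3.50 ± 1.35), Cx3cr1 (2.96 ± 0.53) and Aif1 (1.27 ± 0.68). Each gene overlapped with the next in that order except Cx3cr1 and Aif1. At E14.5 C1qc and C1qb were again the 2 highest, at 6.17 ± 1.96 and 5.73 ± 1.92 FPKM in WT and 5.19 ± 1.06 and 5.39 ± 1.35 FPKM in HARE5Hs/Hs, and their embryos overlapped. Acp5 moved from the fifth place in E12.5 WT and the third in E12.5 HARE5Hs/Hs to the last in both E14.5 groups, at 0.303 ± 0.181 and 0.0534 ± 0.0511 FPKM.

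Levels were also set against Csf1r in the same embryo. The ratio of FPKM of Acp5 to Csf1r lay between 0.713 and 2.30 in the 6 E12.5 embryos and at 0.0907 or less in the 6 E14.5 embryos. Mrc1 to Csf1r lay between 0.466 and 0.883 at E12.5. At E14.5 it was 0.495, 0.270 and 0.711 in WT and 0.649, 0.310 and 0.0502 in HARE5Hs/Hs, so it stayed within the E12.5 range in 3 embryos and was lower in 3. C1qb to Csf1r ran from 1.36 to 2.84 at E12.5 and from 1.04 to 1.93 at E14.5, with overlap.

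The 9 genes varied together between the embryos of E14.5 WT. In CPM, replicate 2 was the lowest of that group for 9 of 9 genes and replicate 3 the highest for 9 of 9. For Tyrobp the last was a near tie, since replicates 1 and 3 both held 32 counts and replicate 1 was higher in FPKM (5.72 against 5.69). In E14.5 HARE5Hs/Hs, replicate 3 was the lowest for 6 of 9 genes and the highest for Aif1 and Tyrobp. The shares of all genes tested with these orders are not given here, so the orders are not read as particular to the 9. Genes of the meninges and mesenchyme (12 listed, such as the collagen gene Col1a1 and the transcription factor Foxc1) were lowest and highest in the same WT embryos and lowest in the same HARE5Hs/Hs embryo. Their summed level was 460, 142 and 908 CPM in E14.5 WT and 482, 184 and 32.8 CPM in E14.5 HARE5Hs/Hs, against 1315 to 2390 CPM at E12.5. Endothelial and pericyte genes (16 listed) summed to 310, 181 and 381 CPM in E14.5 WT and to 321, 248 and 176 CPM in E14.5 HARE5Hs/Hs, against 462 to 646 CPM at E12.5. Both sums were thus lower in every E14.5 embryo than in every E12.5 embryo. The 9 genes together summed to 27.6 to 75.5 CPM at E14.5 and 73.0 to 106 CPM at E12.5, with overlap. Within E14.5 HARE5Hs/Hs the match was partial, since the 9 genes summed to 48.3, 49.7 and 27.6 CPM, with replicates 1 and 2 nearly equal. The part of these cells in the age differences was not tested. Col1a1 was detected in all 12 libraries and ranged from 1.55 CPM in E14.5 HARE5Hs/Hs replicate 3 to 342 CPM in E12.5 WT replicate 1.

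**Figure D3:**
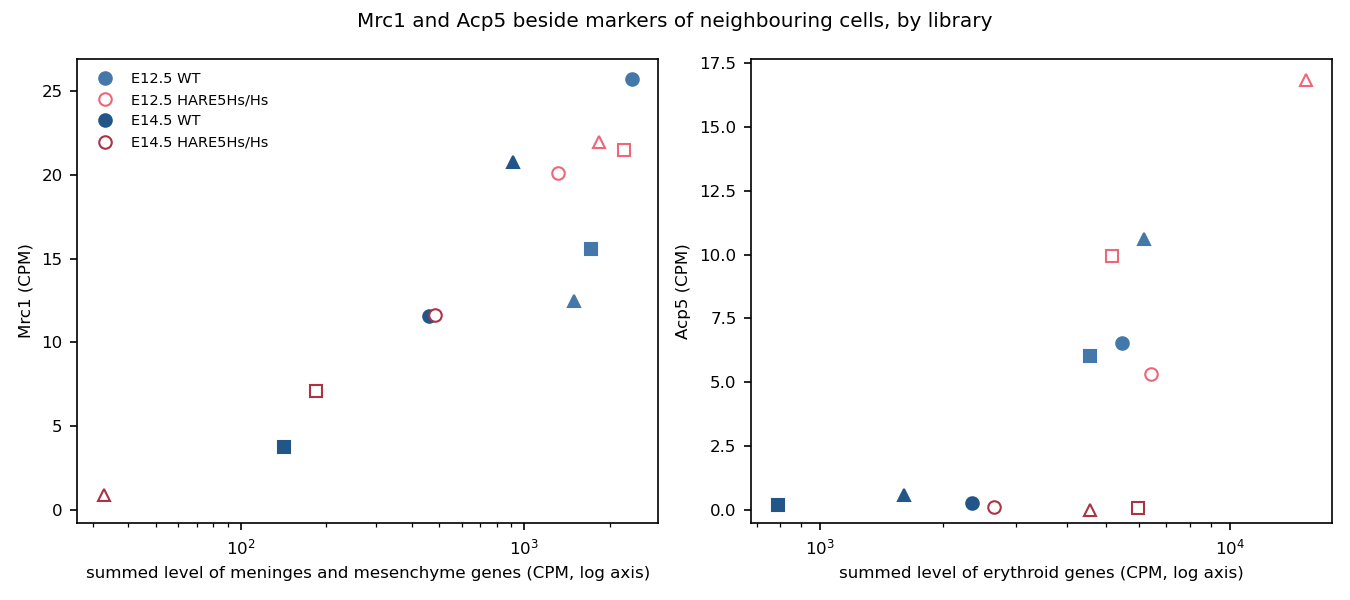
Left, Mrc1 (CPM) against the summed level of 12 meninges and mesenchyme genes (CPM, log axis); right, Acp5 (CPM) against the summed level of the erythroid genes (CPM, log axis); each symbol is 1 embryo, filled for WT, open for HARE5Hs/Hs, light for E12.5 and dark for E14.5, with circle, square and triangle for replicates 1, 2 and 3. At E14.5 the embryo with the lowest meningeal sum (32.8 CPM) has the lowest Mrc1 (0.911 CPM), and Acp5 is at 0.597 CPM or less in every E14.5 embryo, over erythroid sums of 788 to 5974 CPM that include adult globins.

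Mrc1 followed the meningeal genes within E14.5. In both genotypes the order of the 3 embryos was the same for Mrc1 and for the meningeal sum, from 20.8 CPM of Mrc1 beside 908 CPM down to 0.911 CPM beside 32.8 CPM. Lyve1 and F13a1, further genes of border-associated macrophages, were at 0.877 and 2.70 CPM in E14.5 WT replicate 2 and at 6.04 and 18.9 CPM in replicate 3. In E14.5 HARE5Hs/Hs, F13a1 was at 9.43, 2.23 and 0.729 CPM, in the order of the meningeal sum. Lyve1, at 3.97, 0.878 and 1.002 CPM, did not keep that order, being lowest in replicate 2.

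Acp5 changed beside a fall of blood cell genes. Erythroid genes (17 listed, 16 tested) summed to 4549 to 6178 CPM in E12.5 WT and 5161 to 15319 CPM in E12.5 HARE5Hs/Hs, and to 788 to 2347 CPM and 2656 to 5974 CPM at E14.5. E12.5 HARE5Hs/Hs replicate 3 had both the highest erythroid sum and the highest Acp5 level. Replicates 1 and 2 of that group went opposite ways, with sums of 6408 and 5161 CPM beside Acp5 at 5.32 and 9.94 CPM. At E14.5 each HARE5Hs/Hs embryo had a higher erythroid sum and a lower Acp5 level than each WT embryo. The sum is carried in part by the adult globin genes Hba-a1, Hba-a2 and Hbb-bt, which did not pass with age (edgeR adjusted p 0.499, 0.788 and 0.19). The embryonic globin gene Hbb-bh1 ran from 247 to 954 CPM at E12.5 and from 1.55 to 16.1 CPM at E14.5, and the red cell anion exchanger gene Slc4a1 from 79.0 to 303 CPM and from 5.06 to 26.5 CPM, so both were separated by age as Acp5 was. Megakaryocyte genes (11 listed) summed to 101 to 176 CPM at E12.5 and 61.9 to 77.5 CPM at E14.5. Their part in the Acp5 difference was not tested. Without E12.5 HARE5Hs/Hs replicate 3 the log2 fold change of Acp5 in HARE5Hs/Hs was −6.62 in place of −7.11, and it still passed.

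Osteoclast genes did not move as one with Acp5. Of 12 listed, 7 were tested with the genotypes averaged. The integrin gene Itgb3 fell by 2.85 (SE 0.36, edgeR adjusted p = 3.7e-05) and Nfatc1, a transcription factor of osteoclasts and of endothelium, by 1.68 (SE 0.23, edgeR adjusted p = 7.5e-05) on the log2 scale. The protease gene Mmp9 rose by 1.57 (SE 0.42, edgeR adjusted p = 0.0074) and the chloride transporter gene Clcn7 by 0.20 (SE 0.07, edgeR adjusted p = 0.0305). Genes that define osteoclasts were at or near 0: Ocstamp and Dcstamp held at most 5 counts over the 3 embryos of any group, Calcr at most 11, Oscar at most 17, and Atp6v0d2 0 in all 12 libraries. Cathepsin K, Ctsk, was present at 5.50 CPM in E12.5 WT and 5.19 CPM in E12.5 HARE5Hs/Hs, and its difference with age did not pass (edgeR adjusted p = 0.085).

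Among the other pan-macrophage genes, 13 of 22 fell and 2 rose with age, averaged over genotypes, where 28.3% of all genes tested fell and 28.5% rose. The median log2 fold change of the list was −0.996 against −0.02 over all genes tested. The lymphoid and myeloid transcription factor gene Ikzf1 fell by 1.49 (SE 0.23, edgeR adjusted p = 0.0002) and Lcp1, for a leukocyte actin-bundling protein, by 1.07 (SE 0.14, edgeR adjusted p = 4.9e-05). Spi1, which encodes PU.1, had a log2 fold change of −1.16 (SE 0.40, edgeR adjusted p = 0.0256), and Irf8, its partner, of −0.99 (SE 0.24, edgeR adjusted p = 0.0034). Coro1a, for an actin-binding protein that neural cells also express, rose by 0.52 (SE 0.07, edgeR adjusted p = 6.2e-05). Ikzf1, Lcp1 and Coro1a were picked by p, while Spi1 and Irf8 were named after their values were seen.

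Of 18 genes enriched in microglia over other macrophages, 16 were tested, 4 fell and 1 rose, which is near or below the shares of all genes tested (28.3% fell and 28.5% rose), and their median log2 fold change was −0.20. Among those that fell were Tmem119 (−2.04, SE 0.30, edgeR adjusted p = 0.0001), Sparc (−1.14, SE 0.19, edgeR adjusted p = 0.0003) and Rnase4 (−1.01, SE 0.27, edgeR adjusted p = 0.0064). Tmem119 is also expressed in bone-forming mesenchyme and Sparc in endothelium and mesenchyme. Siglech, a lectin gene of microglia, rose by 1.80 (SE 0.56, edgeR adjusted p = 0.0151). The purinergic receptor gene P2ry12, at 0.35 (SE 0.39, edgeR adjusted p = 0.471), and Trem2, the partner of Tyrobp, at −0.13 (SE 0.32, edgeR adjusted p = 0.737), did not pass. Siglech, P2ry12 and Trem2 were named after their values were seen.

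Of 16 border-associated and yolk sac macrophage genes listed, 12 were tested, 6 fell and 1 rose, with a median of −1.03. Of all genes tested, 28.3% fell and 28.5% rose. The platelet factor gene Pf4, also a megakaryocyte gene, fell by 2.76 (SE 0.71, edgeR adjusted p = 0.0056), the endocytic adaptor gene Dab2 by 1.55 (SE 0.33, edgeR adjusted p = 0.0017), the scavenger receptor gene Stab1 by 1.37 (SE 0.30, edgeR adjusted p = 0.0021) and the lipid carrier gene Apoe by 0.84 (SE 0.20, edgeR adjusted p = 0.0032). The gene that rose was Ednrb, which progenitors of the cortex also express. Lyve1 had a log2 fold change of −1.12 (SE 0.46, edgeR adjusted p = 0.053). The difference between this list and the microglia list was not tested, and meningeal RNA, given above, fell over the same interval.

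Of genes of phagocytic microglia and of microglia in proliferative regions, 13 of 16 were tested, 5 fell and 2 rose, with a median of −0.51. Beside the 28.3% of all genes tested that fell, this count is not read as a result about the list. The growth factor gene Igf1 fell by 2.92 (SE 0.59, edgeR adjusted p = 0.0011), the galectin gene Lgals1 by 2.11 (SE 0.30, edgeR adjusted p = 0.0001), the receptor kinase gene Axl by 0.70 (SE 0.09, edgeR adjusted p = 4e-05) and the cathepsin gene Ctsl by 0.66 (SE 0.09, edgeR adjusted p = 8.5e-05). Of complement and DAP12 partners, 9 of 19 were tested, 5 fell and 0 rose, with a median of −0.84. The shares of all genes tested were 28.3% and 28.5%. Syk, the kinase that binds phosphorylated DAP12, fell by 1.60 (SE 0.21, edgeR adjusted p = 5.5e-05), and Plcg2, which acts downstream of it, by 1.94 (SE 0.29, edgeR adjusted p = 0.0001). Cd93 fell by 0.84 (SE 0.17, edgeR adjusted p = 0.0013) and Calr by 0.19 (SE 0.07, edgeR adjusted p = 0.0334). The proteases that act with C1q were scarcely detected: C1ra held at most 9 counts and C1s1 at most 16 counts in any library.

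The ligands of the receptors were measured too. Csf1, a ligand of Csf1r, was at 13.5 to 19.1 CPM in the 6 E12.5 embryos and at 10.02 to 15.7 CPM in the 6 E14.5 embryos, with a log2 fold change of −0.30 (SE 0.13, edgeR adjusted p = 0.0646). Il34, the other ligand of Csf1r, held at most 11 counts in any library and was not tested. Cx3cl1, the ligand of Cx3cr1, ran from 13.8 to 26.2 CPM at E12.5 and from 7.11 to 14.4 CPM at E14.5 and fell by 0.81 (SE 0.16, edgeR adjusted p = 0.0011). Over all genes tested, 28.3% fell and 28.5% rose with age, averaged over genotypes. Of the list of ligands and chemoattractants, 9 of 13 were tested, 5 fell and 0 rose. They included the cytokine receptor gene Csf2rb at −3.45 (SE 0.35, edgeR adjusted p = 9.8e-06), Tgfb1, a cytokine gene that microglia need, at −2.25 (SE 0.26, edgeR adjusted p = 2e-05) and Tgfb2 at −0.57 (SE 0.15, edgeR adjusted p = 0.0074).

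**Figure D4:**
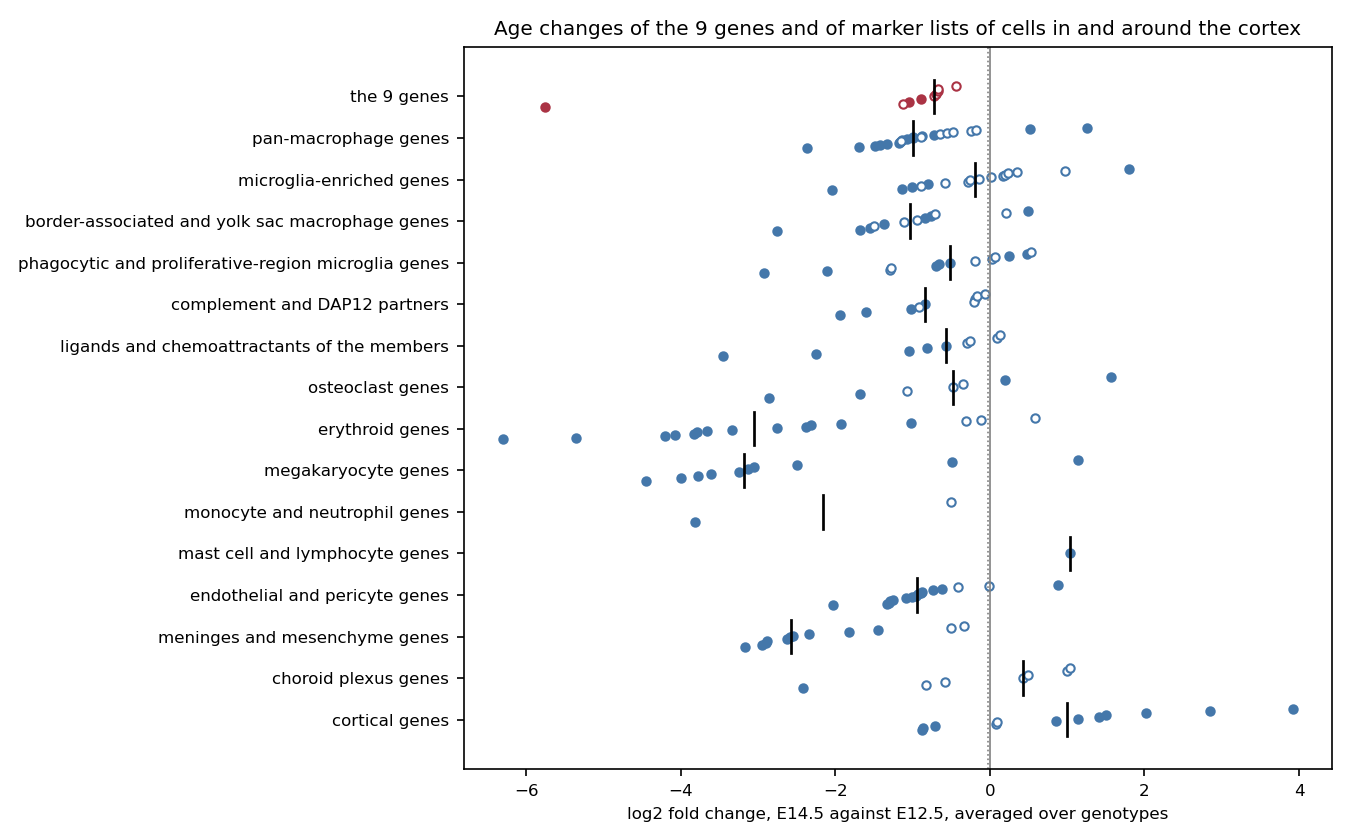
Log2 fold change of E14.5 against E12.5 averaged over genotypes (horizontal axis) for the 9 genes (red) and for the tested genes of 15 other lists (blue); each point is 1 gene, filled where the edgeR adjusted p is under 0.05, black lines are list medians and the dotted line is the median of all genes tested. Medians lie at −0.72 for the 9 genes, −2.57 for meninges and mesenchyme genes, −3.05 for erythroid genes and 1.00 for cortical genes.

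Lists of neighbouring cells moved as follows with age, averaged over genotypes, where 28.3% of all genes tested fell and 28.5% rose. Of 16 endothelial and pericyte genes 13 fell and 1 rose (median −0.95), of 12 meninges and mesenchyme genes 10 fell (median −2.57), of 16 erythroid genes 13 fell (median −3.05) and of 10 megakaryocyte genes 9 fell and 1 rose (median −3.19). Of monocyte and neutrophil genes only 2 of 13 were tested, of which Mpo fell, and of mast cell and lymphocyte genes 1, Kit, was tested and rose. Of 7 choroid plexus genes Otx2 fell, and of 12 cortical genes 7 rose and 3 fell (median 1.00). In none of these lists, nor in the macrophage lists above, did a gene pass in a genotype comparison or in the interaction by edgeR.

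The genes most like the 9 over the 12 libraries, by Pearson correlation of log2 CPM (prior count 2) with the mean of the 9 standardised genes, were Ramp2 (0.987), Bgn (0.983), Hpgds (0.978), Cdh5 (0.977), Arhgap29 (0.976), Abca4 (0.9748), Lhfpl2 (0.974) and Stab1 (0.974). All 12 libraries share the age difference, so group means were also removed. The most alike were then Sardh (0.978), Cybrd1 (0.964), Mrps6 (0.962), Ramp2 (0.961), Stard13 (0.958), Tbx15 (0.952), Lhfpl2 (0.951) and Arhgdib (0.949). Ramp2 and Lhfpl2 stand in both sets, and with a prior count of 0.5 the sets shared 6 and 5 of their 8 genes with these. Ramp2 and Cdh5 are genes of endothelium, Bgn of connective tissue, and Stab1 and Hpgds of macrophages among other cells. These values are a description of 12 libraries that share dissection, depth and age groups.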

How the data were processed

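Polyadenylated RNA of 12 single embryo cortices was sequenced with a stranded kit, per the labels' protocols. Alignment was by STAR, the genome mm39 and the authors' comparison by DESeq2, per the submitters' processing notes; no source used here gives versions, counting tool or strand setting. The 2 tables hold, per the file headers, the authors' expected counts (whole numbers as deposited) and FPKM per library. For the age comparison within 1 genotype, each deposited table adds the log2 fold change the authors computed, with an SE, a p-value and an adjusted p-value. Counts and FPKM were the same in both tables (0 cells differed, with a tolerance of 1e-09 for FPKM). A further 12 per-sample columns per table match no sample of the series and were not used.

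The deposited expected counts entered edgeR 4.0.16 (R 4.3.3, limma 3.58.1): filterByExpr with a minimum count of 10, TMM, and a quasi-likelihood fit of all 12 libraries with 1 mean per group and no block. Tests were 2-sided, with Benjamini-Hochberg adjustment within each comparison and a threshold of 0.05. The SE is the size of the log2 fold change divided by the square root of F, an approximation. The fit was tested on simulated data with known changes. The submitters call the 3 samples of a group biological replicates, and no 2 libraries agreed within sampling noise. Alternatives were the DESeq2 1.42.0 Wald test, its size factors within edgeR, no filter on low counts, a stricter filter (3 libraries with a CPM of 1 or more), a fit of the compared libraries alone, a block on replicate number, and the omission of each library. The 9 genes and all lists were chosen with earlier results of these data known. Named genes are the 9, the 4 tested genes of each other list with the smallest p for age averaged over genotypes, any list gene past the threshold for genotype, and the 8 genes most alike in each of 2 ways; genes named outside this rule, such as defining markers, ligands and partners of the 9, were named after their values were seen. Some genes that meet the rule are not reported here. Promoter sequences are from RefSeq (GRCm38.p6), not the authors' build.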

Additional observations from a re-analysis of the deposited data

How the results depend on the processing

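With age averaged over genotypes, the DESeq2 Wald test called 6 of the 9 genes in place of 3. For this and the other alternatives, the share of all genes that passed for age is not given here. Leaving out each library in turn gave 1 to 3 genes for age in WT, 3 to 4 for age in HARE5Hs/Hs and 3 to 7 averaged over genotypes, and 0 for genotype and the interaction. No label says that the replicate numbers pair the embryos, and the rule used for pairing (every correlation over 0.1) was not met. After group means were removed, same-numbered WT and HARE5Hs/Hs libraries correlated at 0.0963 to 0.336 at E12.5 and −0.443 to −0.112 at E14.5, and 5 of 6 and 0 of 6 libraries correlated best with their own number, so that pairing at E12.5 cannot be told from these data. With the replicate number as a block, 3 genes passed for age in each genotype and averaged, and 0 for genotype. C1qb between genotypes averaged over ages, at −0.01, changed sign to 0.0018 with DESeq2 and to 0.0083 with the replicate block. Direction also changed when single libraries were left out, for Aif1 with age in WT (−0.67 to 0.19) and for genotype differences that did not pass. At E12.5 these were Csf1r (−0.26 to 0.13), Cx3cr1 (−0.16 to 0.0900), C1qb (−0.0276 to 0.22), Tyrobp (−0.11 to 0.61) and Acp5 (−0.0113 to 0.79). At E14.5 they were Csf1r (−0.41 to 0.0655), Cx3cr1 (−0.50 to 0.35), Aif1 (−0.38 to 0.29), C1qa (−0.48 to 0.20), C1qb (−0.28 to 0.21), C1qc (−0.44 to 0.0184) and Tyrobp (−0.20 to 0.19). Averaged over ages they were Cx3cr1 (−0.27 to 0.15), C1qb (−0.10 to 0.14), Tyrobp (−0.0457 to 0.32) and Mrc1 (−0.64 to 0.0187). For the interaction they were Csf1r (−0.30 to 0.17), Cx3cr1 (−0.45 to 0.40), C1qa (−0.16 to 0.52), C1qb (−0.36 to 0.13), C1qc (−0.29 to 0.18) and Tyrobp (−0.59 to 0.12). The cause of these changes was not tested. With only the E14.5 libraries compared, Acp5 did not pass the filter and was not tested. Depth limits Acp5 at E14.5 and Aif1 in all groups.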

Other observations

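Single genes of the 9 had different nearest partners once group means were removed, over 12 libraries and chosen after values were seen. The 8 nearest to Mrc1 were Col26a1 (Pearson r 0.989), Igf2os, Cped1, Col6a3, Serpinf1, Col1a2, Frem1 and Hic1 (0.984), 3 of which are collagen genes. Cx3cr1 was most like Mitf (0.991), a transcription factor gene of macrophages and pigment cells. Its 8 nearest also held Igf1 (0.971), C1qa (0.969), Pon3, Tgfbr3, Aebp1, AI607873 and Fmod. C1qc was most like Spag8 (0.978), followed by Adgre1 (0.968), which encodes the macrophage marker F4/80. After them came 1700003E16Rik, Tcp11, Ccdc65, Dnaic1, F11r and Zfp780b. Of these 8 genes, Adgre1 alone is in a macrophage list used here. Csf1r was most like Lgmn (0.947), a lysosomal protease gene, with the cathepsin gene Ctsb (0.937) also among its 8. The rest of the 8 were Nr3c2, P4ha3, Sdpr, Aqp11, Parp12 and Arhgap20. Aif1 had its neighbour in the genome, Lst1, among its 8 (0.879), below Tmem115 (0.893), Susd1, Nr1h2 and Txndc15. C1qa was most like Arl4a (0.986), C1qb like Chsy1 (0.926), Tyrobp like Raph1 (0.949) and Acp5 like Cdv3 (0.918). These are descriptions of few libraries, with no test.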
